A study of Mus musculus with 12 samples.

Results

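Wild type E14Tg2a mouse embryonic stem cells were compared 12 h after they left 2i medium with LIF against cells still held in it. The members were all 4 wild type (WT) libraries of these times, 2 at 0 h and 2 at 12 h, out of 12 libraries in the series, and every gene of the deposited table was considered. E14Tg2a is an established stem cell line of strain 129/Ola. The 0 h cells were held in 2i and LIF. The 12 h cells had been plated on fibronectin in a serum-free base, N2B27, supplied with Activin, bFGF and the serum replacement KOSR, which induces epiblast-like cells. The other 8 libraries were WT cells at 24 h and a line (delta 0.7, here called delta) that lacks a Tcf15 regulatory region on both alleles at 0, 12 and 24 h, in duplicate. They entered the model to estimate the spread between libraries and to test whether the 12 h change differed in delta. Medium, plating surface and time changed together between 0 h and 12 h and cannot be told apart. Whether replicates were separate cultures is not given in the labels, so the p-values describe the spread among these libraries alone, and that spread may be technical. In bulk RNA, fewer cells expressing a gene and less RNA per cell cannot be told apart either. Changes are also given within same-numbered libraries: pair 1 is replicate 1 at 12 h minus replicate 1 at 0 h, and pair 2 the same for replicate 2.

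As background, 2i joins an inhibitor of MEK, the kinase that activates ERK, with an inhibitor of GSK3, the kinase that marks beta-catenin for destruction, and LIF activates the transcription factor STAT3. In 2i with LIF, ERK is therefore quiet while beta-catenin and STAT3 are active, and the cells resemble the naive epiblast before implantation. Activin and bFGF without these factors take cells towards the formative epiblast, which becomes competent for lineage choice and methylates its DNA anew.

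Expression is given in FPKM, fragments per kilobase of transcript and per unit of library depth, so that levels are per length. Changes are differences of log2(FPKM + 1), which understate the change of low genes. A gene was called when limma, fitted on all 13981 genes with at least 1 FPKM in at least 2 libraries, gave a Benjamini-Hochberg adjusted p under 0.05. The words rose and fell are used only for called genes. Over the first 12 h 298 genes rose (2.13% of those tested) and 265 fell (1.90%), 563 in all (4.03%). These calls rest on the spread of all 12 libraries: with the 4 libraries of these times alone limma called 0 genes (899 positive and 870 negative changes had an unadjusted p under 0.05), and with the 6 WT libraries it called 144 higher and 123 lower. The median change was 1.41 among genes that rose (1.54 in pair 1, 1.30 in pair 2) and -1.32 among those that fell (-1.42 and -1.26), against -0.02 over all genes tested. Every called gene moved the same way in both pairs, and its 0 h and 12 h libraries did not overlap. That separation was common: in 48.0% of all genes tested the libraries of the 2 times did not overlap, with 12 h higher in 22.2% and lower in 25.8%. A change of more than 1 log2 unit in both pairs was found upward in 310 genes (2.22%) and downward in 252 (1.80%). Within a single pair a change of that size was more frequent, in 16.2% of genes in pair 1 and 8.38% in pair 2. The counts of gene lists below are to be read beside the 2.13% that rose and the 1.90% that fell. A single call in a list is no result about that list.

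The recovered depth was 10986613 and 13066277 reads at 0 h and 16701363 and 9741101 reads at 12 h (replicates 1 and 2). Ribosomal protein genes took 11.4% of the reads of WT 0 h replicate 1 and 6.02% to 7.24% of the other 3 libraries. Mitochondrially encoded genes took 0.463% and 0.647% of the replicate 1 libraries (0 h, 12 h) and 2.87% and 1.86% of the replicate 2 libraries. Genes for or resembling ribosomal RNA took 1.31% of WT 12 h replicate 2 and 0.0868% to 0.146% of the others. Of the 563 calls, 113 were made in each of the 12 fits that left out 1 library (67 higher, 46 lower). Without WT 12 h replicate 1 127 of them were made, without WT 12 h replicate 2 228, without WT 0 h replicate 1 269 and without WT 0 h replicate 2 325. All 563 were made without either delta 0 h library. A gene named below and called at 12 h against 0 h held that call in every such fit, unless stated otherwise. The libraries that end a call are given in the same paragraph or where the gene is first described.

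**Figure D1:**
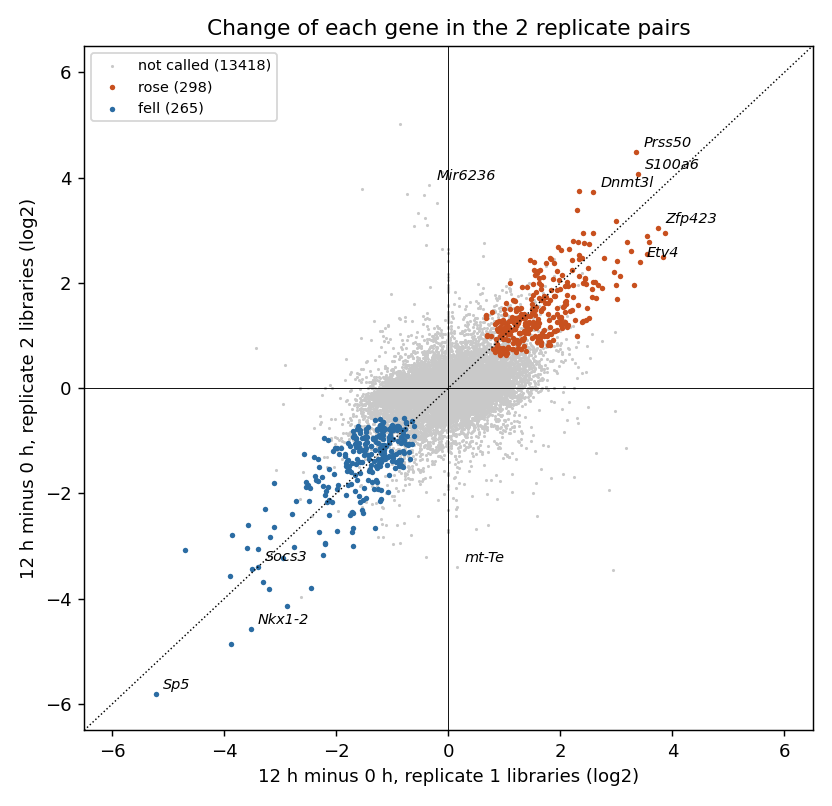
Change from 0 h to 12 h (log2(FPKM + 1)) of all 13981 genes tested in the replicate 1 libraries (horizontal axis) and the replicate 2 libraries (vertical axis). The 298 genes that rose lie above 0 on both axes and the 265 that fell below 0 on both, and the dotted line marks equal change.

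The sequences before a few gene starts are given as a description, and their part in the changes was not tested. Shown are the 250 bases before the RefSeq start (build GRCm38.p6, plus strand, 5′ to 3′) of Sp5 (chr2:70474673-70474922) and T (chr17:8434173-8434422), targets of beta-catenin with its TCF/LEF partners, and of Lamp1 (chr8:13158911-13159160), a lysosomal membrane gene. Capitals mark the TCF/LEF core CTTTGA, or TCAAAG on the other strand, in Sp5 and T, and in Lamp1 the palindrome CACGTG, the E-box at the core of the CLEAR element of lysosomal genes.
Sp5: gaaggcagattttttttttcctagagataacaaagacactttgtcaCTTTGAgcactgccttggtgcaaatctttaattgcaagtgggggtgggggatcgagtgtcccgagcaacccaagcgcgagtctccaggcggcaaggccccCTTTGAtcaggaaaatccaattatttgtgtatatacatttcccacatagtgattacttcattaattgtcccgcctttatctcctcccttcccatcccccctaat
T: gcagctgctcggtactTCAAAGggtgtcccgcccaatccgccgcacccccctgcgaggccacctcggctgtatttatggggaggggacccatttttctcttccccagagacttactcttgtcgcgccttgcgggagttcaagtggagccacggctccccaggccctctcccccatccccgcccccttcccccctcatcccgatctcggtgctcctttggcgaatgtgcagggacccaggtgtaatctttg
Lamp1: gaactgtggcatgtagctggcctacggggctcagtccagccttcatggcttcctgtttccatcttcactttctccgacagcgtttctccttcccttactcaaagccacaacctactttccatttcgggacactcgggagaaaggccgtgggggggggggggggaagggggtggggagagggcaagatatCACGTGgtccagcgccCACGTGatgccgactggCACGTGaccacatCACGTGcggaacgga
Sp5 held 2 TCF/LEF cores, beginning 204 and 104 bases before the start, and T held 1, at 234 bases. Lamp1 held 4 E-boxes, at 61, 45, 28 and 15 bases. On either strand CTTTGA was found before 13.8% of all 32851 RefSeq starts, 10.6% of the starts of genes tested, 12.7% of those of genes that rose and 46 of 242 of those of genes that fell. CACGTG was found before 6.02% of all starts, 8.51% for genes tested, 6.02% for genes that rose and 9.09% for genes that fell. The STAT site TTCCNGGAA was found before 0.988% of the starts of genes tested, 0 of 299 for genes that rose and 6 of 242 for genes that fell. Within the lists used below, CTTTGA was found in 5 of the 10 WNT targets with a start in the table, TTCCNGGAA in 0 of 10 LIF/STAT3 targets and CACGTG in 13 of 42 lysosomal genes, so the promoters shown are examples with a match. A gene can have several starts, and 9163 of the genes tested matched the RefSeq table by symbol. A match describes letters, not binding.

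The beta-catenin targets included the furthest fall of all called genes. Sp5, a zinc finger factor and direct beta-catenin target, stood at 52.7 and 87.4 FPKM in the 0 h libraries and at 0.438 and 0.572 FPKM at 12 h (change -5.52, SE 0.50, adjusted p = 0.00092). The change was -5.22 in pair 1 and -5.81 in pair 2. T (Brachyury), a primitive streak factor, went from 13.6 and 21.1 FPKM to 0.993 and 0.260 (change -3.50, SE 0.63, adjusted p = 0.017). Cdx2, a caudal homeobox factor, went from 5.54 and 8.39 FPKM to 0.381 and 0.0443 (change -2.71, SE 0.28, adjusted p = 0.0016), and Dkk1, a secreted WNT antagonist that beta-catenin induces, from 1.91 and 1.77 to 0.118 and 0.165 (change -1.32, SE 0.20, adjusted p = 0.0072). In all 4 genes both 12 h libraries lay far below both 0 h libraries. T was not called without either WT 12 h library or either WT 0 h library (adjusted p 0.054 to 0.11). Dkk1 was not called without WT 12 h replicate 1 (adjusted p 0.071).

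These were the only calls among 15 measured WNT targets: 4 fell and none rose (median change -0.56, -0.20 in pair 1 and -0.82 in pair 2). Axin2, the feedback scaffold often used as a readout of the pathway, was at 19.2 and 33.9 FPKM and then 7.85 and 4.80, without overlap, but did not pass the test (change -1.89, SE 0.48, adjusted p = 0.066). Cdx1 was at 15.2 and 50.8 FPKM and then 1.61 and 2.29, also without a call (change -3.31, SE 0.81, adjusted p = 0.059); its 0 h libraries differed widely. Ccnd1, a cyclin listed with them, had a change of -0.09. The count of WNT targets that fell was 3 and 3 without WT 0 h replicate 1 and 2, 2 and 3 without WT 12 h replicate 1 and 2, and 4 to 6 without any 1 of the other 8 libraries. Among 16 measured WNT pathway components 2 rose: Tcf7l1, the TCF factor that represses naive genes (17.96 and 29.1 FPKM, then 65.8 and 51.9; adjusted p = 0.043), and the corepressor Tle4 (20.5 and 26.8 FPKM, then 64.6 and 54.5; adjusted p = 0.008). Tcf7l1 was not called without either WT 12 h library, WT 0 h replicate 1, either WT 24 h library, either delta 12 h library or either delta 24 h library (adjusted p 0.067 to 0.28). Tle4 was not called without WT 12 h replicate 1 (adjusted p 0.087).

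LIF signalling showed its clearest change in the feedback inhibitor of STAT3. Socs3, which STAT3 induces and which then blocks the receptor, stood at 30.9 and 58.6 FPKM at 0 h and at 2.03 and 4.68 at 12 h (change -3.39, SE 0.39, adjusted p = 0.0023). The change was nearly equal in the pairs, -3.40 in pair 1 and -3.39 in pair 2. Bcl3, an NF-kappaB cofactor and STAT3 target, went from 20.5 and 40.0 FPKM to 3.32 and 5.18 (change -2.52, SE 0.34, adjusted p = 0.0045). In both genes the libraries of the times did not overlap. In all, 3 of 12 measured LIF/STAT3 targets fell and none rose (median change -0.94, -0.51 in pair 1 and -1.07 in pair 2). The count of LIF/STAT3 targets that fell was 2 and 2 without WT 0 h replicate 1 and 2, 1 and 3 without WT 12 h replicate 1 and 2, and 2 to 4 without any 1 of the other 8 libraries. The naive factors Klf4 (77.3 and 171 FPKM, then 39.1 and 38.5; adjusted p = 0.16) and Tfcp2l1 (44.6 and 93.3 FPKM, then 24.4 and 30.0; adjusted p = 0.2) were lower in both 12 h libraries but not called. Stat3 itself was at 9.53 and 14.1 FPKM and then 3.86 and 4.43 (change -1.30, SE 0.31, adjusted p = 0.052). Of 11 measured genes for the receptor, its kinases and feedback, Socs3 alone was called; the receptor gene Lifr was at 5.45 and 7.49 FPKM and then 10.8 and 10.8 (change 0.67, SE 0.24, adjusted p = 0.18). Osm, which encodes the LIF family cytokine oncostatin M, fell from 11.7 and 19.6 FPKM to 1.34 and 0.485 (change -3.12, SE 0.32, adjusted p = 0.0015). Bcl3 was not called without WT 12 h replicate 1 (adjusted p 0.055).

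**Figure D2:**
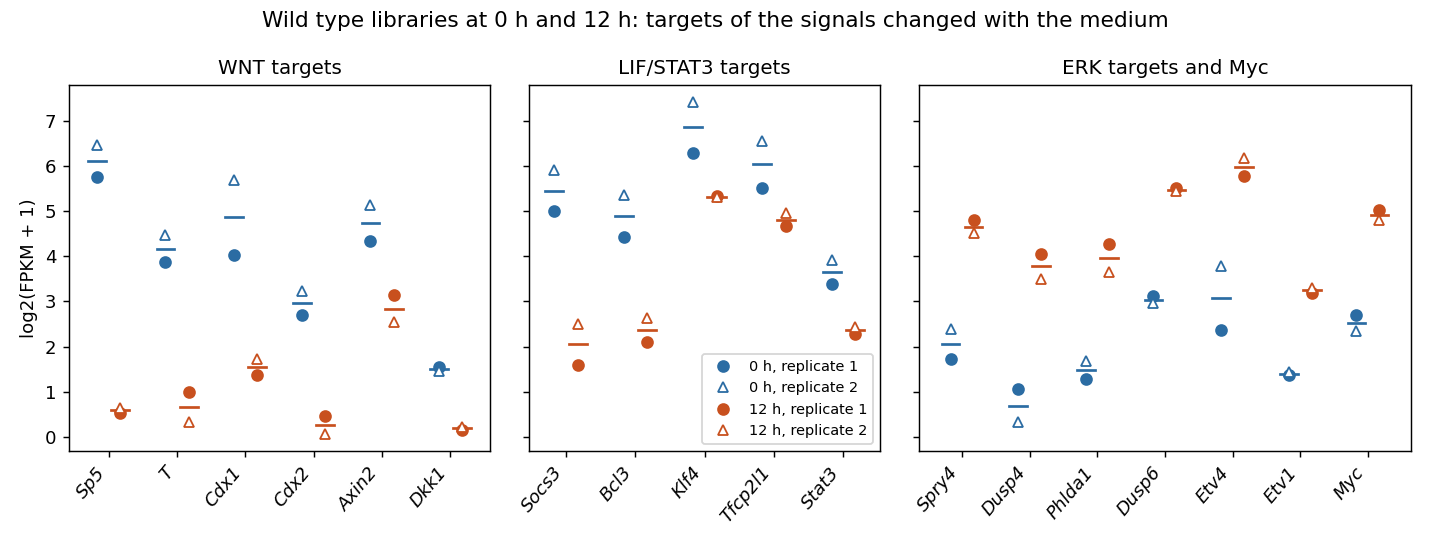
log2(FPKM + 1) of WNT targets, LIF/STAT3 targets and ERK targets with Myc in the 4 wild type libraries (blue, 0 h; orange, 12 h; circle, replicate 1; triangle, replicate 2; bar, mean of the 2 libraries). Sp5 drops from 52.7 and 87.4 FPKM to 0.438 and 0.572 FPKM and Socs3 from 30.9 and 58.6 to 2.03 and 4.68, while Spry4, Dusp4 and Dusp6 lie higher in both 12 h libraries than in both 0 h libraries.

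Targets of ERK moved upward. Dusp4, a nuclear phosphatase that inactivates ERK, was at 1.08 and 0.252 FPKM at 0 h and at 15.7 and 10.2 at 12 h (change 3.08, SE 0.31, adjusted p = 0.0013). Dusp6, the cytoplasmic ERK phosphatase, went from 7.66 and 6.84 FPKM to 44.3 and 42.4 (change 2.43, SE 0.29, adjusted p = 0.0026), and Spry4, an inhibitor of receptor tyrosine kinase signalling, from 2.30 and 4.25 to 26.7 and 21.9 (change 2.60, SE 0.26, adjusted p = 0.0012). All 3 negative regulators were several times higher in every 12 h library than in any 0 h library. The ETS factors Etv4 and Etv1, which ERK induces, rose as well, Etv4 from 4.17 and 12.8 FPKM to 54.2 and 71.1 (change 2.90, SE 0.42, adjusted p = 0.0067) and Etv1 from 1.57 and 1.71 to 8.15 and 8.88 (change 1.85, SE 0.29, adjusted p = 0.0091). With Phlda1 (1.43 and 2.23 FPKM, then 18.3 and 11.5; adjusted p = 0.0022), 6 of 15 measured ERK feedback genes and targets rose and none fell (median change 0.93, 1.5 in pair 1 and 0.69 in pair 2). The members did not move as 1 block: Etv5 was at 56.0 and 71.2 FPKM and then 111.7 and 91.6, and Spry2 at 31.2 and 48.5 and then 32.8 and 27.2, neither of them called (adjusted p = 0.17 and 0.46). Of 13 measured immediate early genes Myc alone rose, from 5.46 and 4.08 FPKM to 31.5 and 26.7 (change 2.39, SE 0.27, adjusted p = 0.0023). Its network of 16 measured genes held no other call and had a median change of -0.08. None of 8 measured FGF ligand and receptor genes was called; Fgf4, the main FGF ligand of these cells, was at 71.0 and 80.7 FPKM and then 102 and 91.3 (change 0.35, SE 0.20, adjusted p = 0.42). Etv4 was not called without WT 12 h replicate 2 (adjusted p 0.054). Etv1 was not called without either WT 12 h library or WT 0 h replicate 1 (adjusted p 0.052 to 0.074).

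Activin was supplied to the 12 h cells. Of the genes of its pathway 1 rose and 1 fell, beside 2.13% and 1.90% of all genes tested. Of 17 measured, Fst (follistatin, an Activin antagonist) fell from 13.8 and 16.1 FPKM to 3.79 and 5.74 (change -1.48, SE 0.23, adjusted p = 0.008), and Inhbb, an Activin subunit gene, rose from 0.186 and 0.162 to 1.20 and 1.46 (change 0.99, SE 0.18, adjusted p = 0.017). The Nodal targets Lefty1 (34.7 and 2.14 FPKM, then 25.1 and 7.07) and Lefty2 (121 and 14.02 FPKM, then 64.8 and 22.8) were higher in the replicate 1 library at both times, and the times overlapped. Nodal itself was at 37.8 and 27.3 FPKM and then 32.3 and 36.3. Of 12 measured BMP pathway and Id genes 1 rose and 2 fell. Id4, an inhibitor of helix-loop-helix factors, fell from 16.6 and 16.8 FPKM to 6.06 and 5.79 (change -1.36, SE 0.21, adjusted p = 0.009), and Smad9 (1.62 and 1.66 FPKM, then 0.171 and 0.243; adjusted p = 0.0095) fell as well. Smad6, an inhibitory SMAD, rose (1.02 and 2.32 FPKM, then 4.11 and 5.25; adjusted p = 0.049). Id1, a direct BMP target, was not called (3.57 and 3.24 FPKM, then 14.2 and 7.34; adjusted p = 0.061). Fst was not called without WT 12 h replicate 1 (adjusted p 0.081). Inhbb was not called without either WT 12 h library or either WT 0 h library (adjusted p 0.066 to 0.11). Id4 and Smad9 were not called without either WT 12 h library (adjusted p 0.063 to 0.075 and 0.053 to 0.085, respectively). Smad6 was not called without either WT 12 h library, WT 0 h replicate 1, either WT 24 h library, either delta 12 h library or either delta 24 h library (adjusted p 0.087 to 0.25).

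Naive pluripotency genes were only partly lower at 12 h: of 23 measured 4 fell and 2 rose (median change -0.25, -0.08 in pair 1 and -0.54 in pair 2). The count of naive genes that fell was 0 and 0 without WT 0 h replicate 1 and 2, 0 and 0 without WT 12 h replicate 1 and 2, and 2 to 7 without any 1 of the other 8 libraries. Dppa3 (Stella), which protects DNA from methylation, went from 67.2 and 61.5 FPKM to 20.4 and 15.1 (change -1.82, SE 0.33, adjusted p = 0.017). Klf2, a naive transcription factor (225 and 230.1 FPKM, then 123 and 83.7; adjusted p = 0.037), Tcl1 (75.2 and 70.5 FPKM, then 44.2 and 44.6; adjusted p = 0.037) and the ETS factor Spic (4.29 and 5.96 FPKM, then 0.823 and 0.391; adjusted p = 0.018) fell too. Nanog, at 335 and 282 FPKM and then 198 and 193, was lower in both 12 h libraries but not called (change -0.65, SE 0.24, adjusted p = 0.2). Esrrb (64.2 and 121 FPKM, then 91.2 and 89.3), Zfp42 (497 and 298 FPKM, then 389 and 340.3) and Tbx3 (22.2 and 44.4 FPKM, then 31.1 and 33.7) lay between their 0 h libraries at 12 h, with changes of 0.03, -0.08 and 0.04. Nr0b1 (Dax1), a nuclear receptor, rose from 62.7 and 34.1 FPKM to 184 and 154 (change 1.84, SE 0.29, adjusted p = 0.0084), and so did the lysosomal mannosidase gene Manba (15.96 and 11.3 FPKM, then 30.0 and 28.5; adjusted p = 0.026). Dppa3 and Spic were not called without either WT 12 h library or either WT 0 h library (adjusted p 0.056 to 0.11 and 0.052 to 0.12, respectively). Klf2 and Tcl1 were called in 2 fits alone, those without a delta 0 h library (adjusted p 0.06 to 0.23 and 0.074 to 0.22 in the others). Nr0b1 was not called without WT 12 h replicate 1 (adjusted p 0.087). Manba was not called without either WT 12 h library, WT 0 h replicate 2, either delta 12 h library or either delta 24 h library (adjusted p 0.055 to 0.18).

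General pluripotency genes rose in larger number: 6 of 16 measured rose and none fell (median change 0.84, 1.20 in pair 1 and 0.31 in pair 2), beside 2.13% of all genes tested that rose. The count of general pluripotency genes that rose was 5 and 5 without WT 0 h replicate 1 and 2, 3 and 4 without WT 12 h replicate 1 and 2, and 6 to 7 without any 1 of the other 8 libraries. Utf1, a chromatin factor of embryonic stem cells, went from 116 and 76.1 FPKM to 583 and 524 (change 2.54, SE 0.26, adjusted p = 0.0013). L1td1, an RNA-binding protein gene, went from 114 and 114 FPKM to 336 and 301 (change 1.47, SE 0.18, adjusted p = 0.0031). In both genes every 12 h library was over 2 times as high as any 0 h library. Dppa2 (13.9 and 12.1 FPKM, then 57.9 and 47.3; adjusted p = 0.0083), its partner Dppa4 (39.2 and 33.0 FPKM, then 95.0 and 82.3; adjusted p = 0.011) and the zinc finger gene Zfp281 (14.6 and 18.8 FPKM, then 45.6 and 35.2; adjusted p = 0.019) rose as well. The core factors were not called: Pou5f1 (Oct4) was at 888 and 577 FPKM and then 684 and 669 (change -0.08, SE 0.35, adjusted p = 0.92), and Sox2 at 226 and 255 and then 342 and 302 (change 0.42, SE 0.20, adjusted p = 0.35). Dppa2 was not called without WT 12 h replicate 1 (adjusted p 0.086). Dppa4 was not called without either WT 12 h library or WT 0 h replicate 2 (adjusted p 0.054 to 0.11). Zfp281 was not called without either WT 12 h library or WT 0 h replicate 1 (adjusted p 0.053 to 0.17).

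Of 16 measured formative epiblast genes 10 rose and none fell (median change 1.77, 2.00 in pair 1 and 1.46 in pair 2), beside 2.13% of all genes tested that rose. The count of formative genes that rose was 9 and 7 without WT 0 h replicate 1 and 2, 4 and 10 without WT 12 h replicate 1 and 2, and 8 to 11 without any 1 of the other 8 libraries. Etv4, described above, and Dnmt3b and Cldn6, described below, are among them. Sox4 (1.44 and 1.75 FPKM, then 9.21 and 7.14; adjusted p = 0.0029), Grhl2, a factor that opens epithelial enhancers (1.04 and 1.34 FPKM, then 9.09 and 5.99; adjusted p = 0.0038), and the kinase gene Pim2 (5.30 and 3.24 FPKM, then 26.4 and 16.2; adjusted p = 0.0041) changed by 1.82, 1.94 and 2.07. The forkhead gene Foxd3 went from 12.7 and 23.6 FPKM to 74.5 and 59.6 (change 1.88, SE 0.27, adjusted p = 0.0061). Pou3f1 (Oct6), a POU factor, went from 0.282 and 0.0997 FPKM to 6.93 and 2.60 (change 2.17, SE 0.38, adjusted p = 0.014), and Zic2 from 13.6 and 5.07 to 52.3 and 24.6 (change 1.97, SE 0.43, adjusted p = 0.038). Sox3 rose too (0.717 and 0.112 FPKM, then 2.78 and 1.84; adjusted p = 0.033). Otx2, which redirects enhancers in the formative state, was at 4.85 and 1.60 FPKM and then 29.5 and 10.9; the times did not overlap, but it was not called (change 2.29, SE 0.73, adjusted p = 0.14). Replicate 1 was the higher library of Otx2, Zic2 and Pou3f1 at both times. Fgf5, a marker of the later epiblast, was at 0.158 and 0 FPKM at 0 h and still at 0.345 and 0.160 at 12 h. Foxd3 was not called without WT 12 h replicate 1 (adjusted p 0.074). Pou3f1 was not called without WT 12 h replicate 1 or either WT 0 h library (adjusted p 0.055 to 0.089). Zic2 was not called without WT 12 h replicate 1, WT 0 h replicate 2, either WT 24 h library, either delta 12 h library or either delta 24 h library (adjusted p 0.068 to 0.27). Sox3 was not called without either WT 12 h library, WT 0 h replicate 2, either WT 24 h library, either delta 12 h library or either delta 24 h library (adjusted p 0.06 to 0.24).

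Tcf15, a helix-loop-helix factor of the epiblast and the gene targeted in delta, rose in the WT libraries from 9.16 and 3.45 FPKM to 57.1 and 28.8 (change 2.63, SE 0.47, adjusted p = 0.017). The change was 2.52 in pair 1 and 2.75 in pair 2. In delta it was at 2.16 and 1.05 FPKM at 0 h and 1.06 and 1.04 at 12 h, below every WT library at 12 h. Of the E-protein genes whose products pair with such factors, Tcf3 (39.4 and 58.6 FPKM, then 56.5 and 54.1; adjusted p = 0.76), Tcf4 and Tcf12, none was called. Tcf15 was not called without WT 12 h replicate 1 or WT 0 h replicate 2 (adjusted p 0.072 to 0.15).

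**Figure D3:**
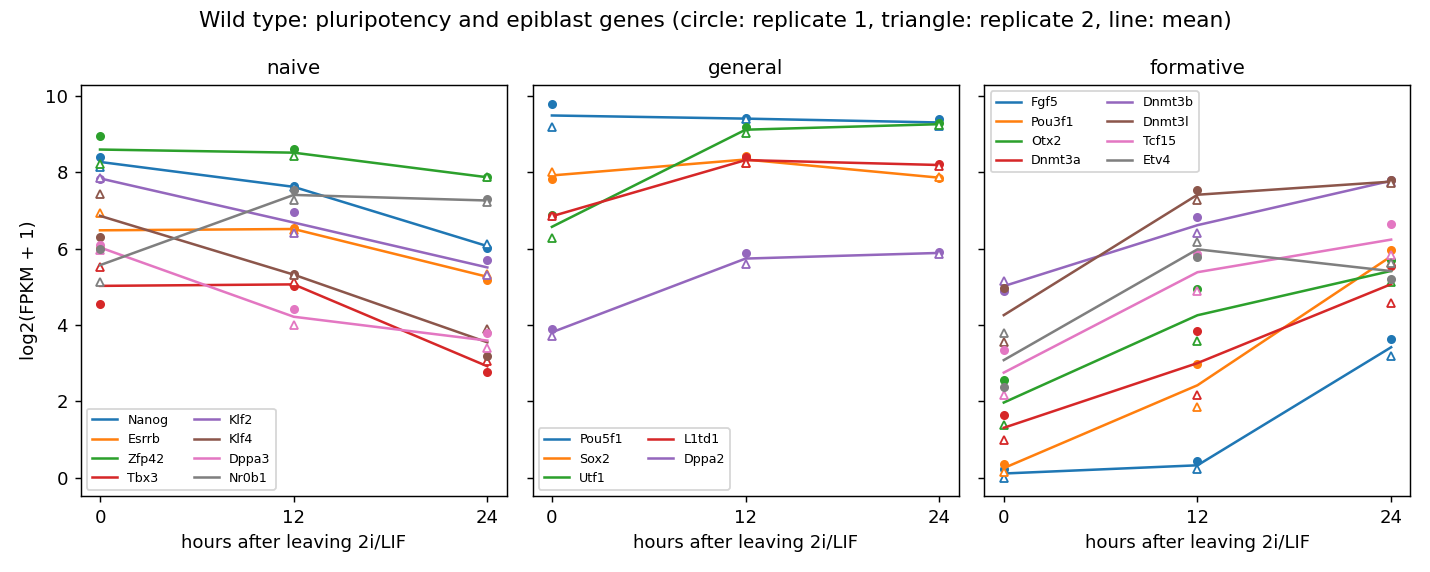
log2(FPKM + 1) of naive, general pluripotency and formative genes in wild type cells at 0, 12 and 24 h (circle, replicate 1; triangle, replicate 2; line, mean of the 2 libraries). At 12 h Utf1, L1td1 and Tcf15 are above 0 h in both libraries, while Esrrb, Zfp42, Tbx3 and Pou5f1 lie between their 0 h libraries.

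The machinery of DNA methylation rose in part, 3 of 14 measured genes with none falling. The count of methylation genes that rose was 3 and 2 without WT 0 h replicate 1 and 2, 1 and 4 without WT 12 h replicate 1 and 2, and 3 without any 1 of the other 8 libraries. Dnmt3l, the catalytically inactive cofactor of the de novo methyltransferases, went from 30.2 and 10.7 FPKM to 186 and 154 (change 3.15, SE 0.37, adjusted p = 0.0026). Dnmt3b, 1 of those enzymes, went from 28.5 and 34.5 FPKM to 112.1 and 83.6 (change 1.60, SE 0.23, adjusted p = 0.0059), and Gadd45a rose (8.39 and 5.44 FPKM, then 30.3 and 20.4; adjusted p = 0.014). Dnmt3a was at 2.09 and 0.973 FPKM and then 13.4 and 3.45, without overlap or a call (change 1.70, SE 0.54, adjusted p = 0.14). Prdm14, which represses the de novo enzymes in naive cells, was not called (10.97 and 17.7 FPKM, then 10.3 and 5.24; adjusted p = 0.35). Aire overlaps Dnmt3l on the opposite strand in the annotation and was called too (0.826 and 0.201 FPKM, then 4.28 and 5.29; adjusted p = 0.018). Dnmt3b was not called without WT 12 h replicate 1 (adjusted p 0.072). Gadd45a was not called without WT 12 h replicate 1 or WT 0 h replicate 2 (adjusted p 0.07 to 0.13). Aire was not called without either WT 12 h library or WT 0 h replicate 2 (adjusted p 0.087 to 0.11).

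Among 14 measured polycomb genes 3 rose and 1 fell. The count of polycomb genes that rose was 0 and 2 without WT 0 h replicate 1 and 2, 0 and 1 without WT 12 h replicate 1 and 2, and 1 to 4 without any 1 of the other 8 libraries. Phf19, which helps recruit the methylating complex, rose from 0.157 and 0.107 FPKM to 1.99 and 1.29 (change 1.21, SE 0.20, adjusted p = 0.011). Jarid2, another accessory subunit (12.8 and 23.4 FPKM, then 66.6 and 47.7; adjusted p = 0.037), and Kdm2b, which binds CpG islands (8.80 and 14.2 FPKM, then 33.0 and 26.9; adjusted p = 0.035), rose, and Pcgf1, a partner of Kdm2b (13.6 and 14.5 FPKM, then 7.42 and 6.80; adjusted p = 0.033), fell. The catalytic subunit gene Ezh2 was not called (22.7 and 26.7 FPKM, then 20.4 and 22.2; adjusted p = 0.57). Of 14 measured germline genes Ddx4 alone rose (0.831 and 0.674 FPKM, then 3.77 and 2.81; adjusted p = 0.015). Of 9 measured paternally expressed imprinted genes Peg10 (3.20 and 5.83 FPKM, then 25.8 and 25.7; adjusted p = 0.021) and Mest (8.98 and 7.28 FPKM, then 14.8 and 20.7; adjusted p = 0.022) rose, and none of 11 maternally expressed ones was called. Phf19 and Ddx4 were not called without WT 12 h replicate 1 or either WT 0 h library (adjusted p 0.05 to 0.1 and 0.056 to 0.14, respectively). Jarid2 and Kdm2b were not called without either WT 12 h library, WT 0 h replicate 1, either WT 24 h library, either delta 12 h library or either delta 24 h library (adjusted p 0.067 to 0.26 and 0.066 to 0.24, respectively). Pcgf1 was not called without either WT 12 h library, either WT 0 h library, either delta 12 h library or either delta 24 h library (adjusted p 0.068 to 0.18). Peg10 was not called without either WT 12 h library or WT 0 h replicate 1 (adjusted p 0.11 to 0.14). Mest was not called without WT 12 h replicate 2, WT 0 h replicate 2, either delta 12 h library or either delta 24 h library (adjusted p 0.052 to 0.15).

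Integrin alpha chain genes rose: 5 of 10 measured integrin and fibronectin genes, with none falling (median change 0.58, 1.05 in pair 1 and 0.50 in pair 2). The 12 h cells sat on fibronectin, but medium and time changed with the surface, and its part was not tested. Itga3, a laminin receptor chain, went from 0.916 and 2.26 FPKM to 26.2 and 17.3 (change 3.158, SE 0.35, adjusted p = 0.0023). Itga5, the fibronectin receptor chain, went from 2.25 and 1.33 FPKM to 15.3 and 9.15 (change 2.22, SE 0.33, adjusted p = 0.0067). Itga9 (0.321 and 0.120 FPKM, then 4.34 and 1.80; adjusted p = 0.015), Itga1 (0.0660 and 0.0770 FPKM, then 1.56 and 0.988; adjusted p = 0.015) and Itga6 (12.1 and 15.2 FPKM, then 23.8 and 24.7; adjusted p = 0.04) rose as well. The shared beta chain gene Itgb1 overlapped between the times (38.8 and 21.5 FPKM, then 44.2 and 27.5). The count of integrin genes that rose was 2 and 3 without WT 0 h replicate 1 and 2, 1 and 4 without WT 12 h replicate 1 and 2, and 4 to 5 without any 1 of the other 8 libraries. None of 17 measured basement membrane genes was called. Itga5 was not called without WT 12 h replicate 1 (adjusted p 0.074). Itga9 and Itga1 were not called without WT 12 h replicate 1 or either WT 0 h library (adjusted p 0.052 to 0.084 and 0.057 to 0.13, respectively). Itga6 was not called without either WT 12 h library, WT 0 h replicate 1, either WT 24 h library, either delta 12 h library or either delta 24 h library (adjusted p 0.078 to 0.2).

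Of 23 measured epithelial junction genes 5 rose and none fell (median change 0.26, 0.49 in pair 1 and -0.10 in pair 2). The count of junction genes that rose was 3 and 3 without WT 0 h replicate 1 and 2, 2 and 4 without WT 12 h replicate 1 and 2, and 3 to 6 without any 1 of the other 8 libraries. Besides Grhl2 these were the cingulin relative Cgnl1 (0.428 and 0.176 FPKM, then 7.47 and 3.35; adjusted p = 0.0055), the claudin gene Cldn6 (5.64 and 3.31 FPKM, then 20.8 and 13.5; adjusted p = 0.009), the keratin gene Krt18 (2.26 and 1.43 FPKM, then 13.1 and 7.30; adjusted p = 0.031) and the splicing regulator gene Esrp1 (0.783 and 0.219 FPKM, then 5.84 and 2.24; adjusted p = 0.039). Other claudin genes were not called, among them Cldn3 (7.53 and 4.88 FPKM, then 2.51 and 2.15) and Cldn4 (75.9 and 59.1 FPKM, then 40.7 and 47.5). Of 19 measured SRF and YAP targets Ajuba, a LIM protein gene, alone rose (18.1 and 22.3 FPKM, then 79.7 and 54.8; adjusted p = 0.011). Among 13 measured S100 and annexin genes the calcium-binding protein gene S100a6 rose from 2.67 and 0.955 FPKM to 37.3 and 31.7 (change 3.72, SE 0.33, adjusted p = 0.00082), as did Anxa3 (1.44 and 1.43 FPKM, then 5.93 and 7.31; adjusted p = 0.0046). The annexins Anxa4 (19.2 and 18.4 FPKM, then 7.90 and 8.19; adjusted p = 0.0067) and Anxa7 (74.9 and 53.7 FPKM, then 26.4 and 23.9; adjusted p = 0.013) fell. Cldn6 and Anxa4 were not called without WT 12 h replicate 1 (adjusted p 0.087 and 0.074, respectively). Krt18 was not called without either WT 12 h library, either WT 0 h library, either delta 12 h library or either delta 24 h library (adjusted p 0.057 to 0.24). Esrp1 was not called without WT 12 h replicate 1, either WT 0 h library, either WT 24 h library, either delta 12 h library or either delta 24 h library (adjusted p 0.054 to 0.25). Ajuba was not called without WT 12 h replicate 1 or WT 0 h replicate 1 (adjusted p 0.07 to 0.11). Anxa7 was not called without either WT 12 h library or WT 0 h replicate 1 (adjusted p 0.074 to 0.093).

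In the list of lysosomal and Tfe3 pathway genes, 1 of the first 45 lists, 5 of 14 measured fell and none rose (median change -0.74). These were Lamp1 and Lamp2, given here, and Mitf, Tfeb and Fnip1, given below. The 45 lists were chosen with earlier results of these data known, and a longer list was chosen from these same data. The counts and medians of both therefore describe these data and are not a test. In a list of 52 measured lysosomal genes, chosen after their values were seen, 12 fell and Manba alone rose (median change -0.64, -0.61 in pair 1 and -0.60 in pair 2). Hexa, a subunit of beta-hexosaminidase, went from 87.4 and 95.2 FPKM to 16.7 and 27.3 (change -2.04, SE 0.27, adjusted p = 0.004), and Lamp2, a lysosomal membrane protein gene, from 23.0 and 17.2 to 4.45 and 5.27 (change -1.84, SE 0.22, adjusted p = 0.0027). The cholesterol carrier gene Npc2 (172 and 109 FPKM, then 33.6 and 42.0; adjusted p = 0.004), the protease gene Ctsc (14.8 and 20.7 FPKM, then 2.46 and 4.57; adjusted p = 0.0059) and the peptidase gene Dpp7 (11.9 and 12.8 FPKM, then 3.94 and 5.43; adjusted p = 0.0077) also fell. Lamp1, whose start carries the 4 E-boxes shown above, fell from 249.9 and 271 FPKM to 135 and 162 (change -0.81, SE 0.18, adjusted p = 0.037). Others that fell included Ctsa, Fuca2, Dnase2a and Galc. The count of lysosomal genes that fell was 7 and 10 without WT 0 h replicate 1 and 2, 2 and 5 without WT 12 h replicate 1 and 2, and 8 to 19 without any 1 of the other 8 libraries. Summed over the list, FPKM was 2180 and 1800 at 0 h and 1010 and 1130 at 12 h, so the 12 h sums lay below both 0 h sums. Npc2, Ctsc and Dpp7 were not called without WT 12 h replicate 1 (adjusted p 0.054, 0.062 and 0.082, respectively). Lamp1 and Galc were called in 2 fits alone, those without a delta 0 h library (adjusted p 0.074 to 0.29 and 0.077 to 0.23 in the others). Ctsa was not called without either WT 12 h library or WT 0 h replicate 2 (adjusted p 0.064 to 0.11). Fuca2 was not called without either WT 12 h library (adjusted p 0.088 to 0.1). Dnase2a was not called without either WT 12 h library, WT 0 h replicate 1, either WT 24 h library, either delta 12 h library or either delta 24 h library (adjusted p 0.053 to 0.16).

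Regulators of the lysosome moved unevenly. Mitf, of the MiT family of lysosomal activators, fell from 13.1 and 12.9 FPKM to 3.41 and 3.43 (change -1.66, SE 0.20, adjusted p = 0.0026). Its relative Tfeb (18.04 and 9.51 FPKM, then 5.83 and 5.12; adjusted p = 0.049) and the folliculin partner gene Fnip1 (11.02 and 7.24 FPKM, then 3.84 and 4.38; adjusted p = 0.037) also fell. Tfe3, the family member tied to exit from the naive state, was not called (6.94 and 12.9 FPKM, then 15.3 and 14.7; adjusted p = 0.37). Of 17 measured proton pump genes, listed after their values were seen, Atp6ap1 (23.4 and 29.3 FPKM, then 14.6 and 13.6; adjusted p = 0.029) and Atp6ap2 (50.5 and 40.3 FPKM, then 21.5 and 23.5; adjusted p = 0.027) fell (median change -0.54). Of 21 measured autophagy genes, listed in the same way, Map1lc3b (28.1 and 23.3 FPKM, then 9.69 and 11.7; adjusted p = 0.027) and Gabarap (63.7 and 51.9 FPKM, then 27.9 and 29.0; adjusted p = 0.022) fell; both encode proteins of the autophagosome coat. Tfeb, Fnip1 and Atp6ap2 were not called without either WT 12 h library, WT 0 h replicate 1, either WT 24 h library, either delta 12 h library or either delta 24 h library (adjusted p 0.082 to 0.22, 0.068 to 0.24 and 0.05 to 0.19, respectively). Atp6ap1 was not called without either WT 12 h library, WT 0 h replicate 2, either WT 24 h library, either delta 12 h library or either delta 24 h library (adjusted p 0.062 to 0.16). Map1lc3b was called in 2 fits alone, those without a delta 0 h library (adjusted p 0.055 to 0.2 in the others). Gabarap was not called without either WT 12 h library, WT 0 h replicate 1, either delta 12 h library or either delta 24 h library (adjusted p 0.052 to 0.17).

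**Figure D4:**
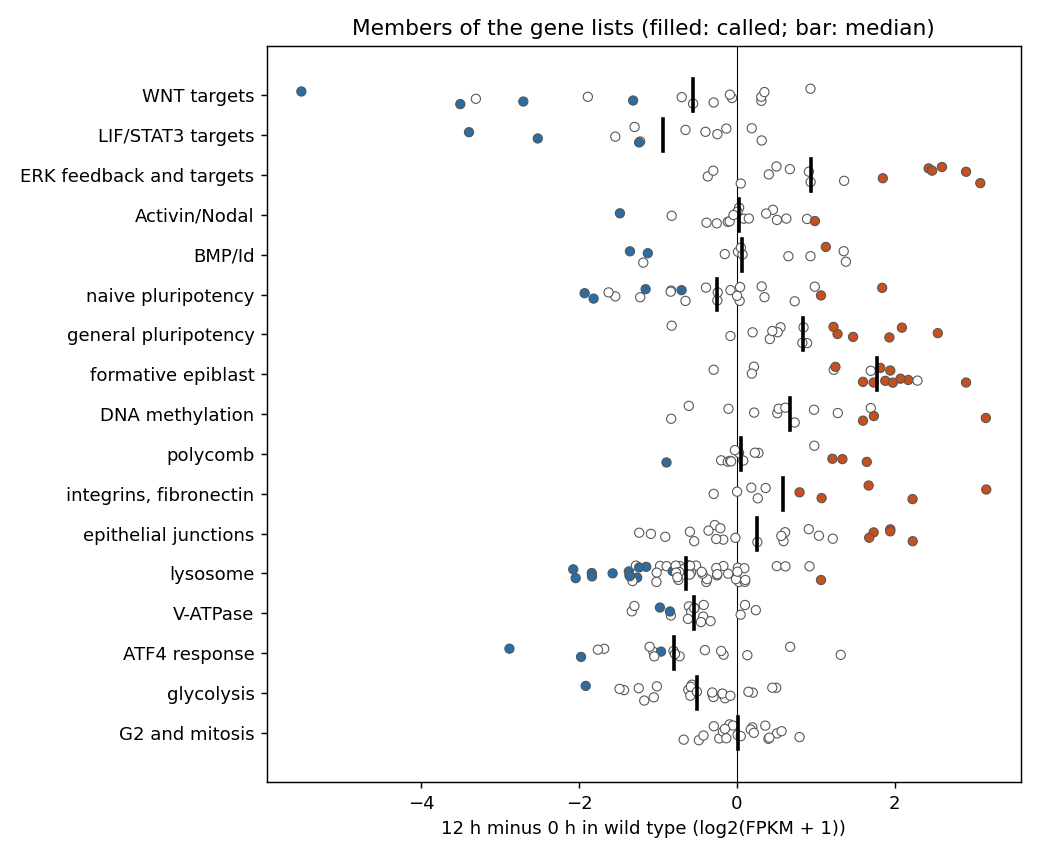
Change from 0 h to 12 h in wild type cells (log2(FPKM + 1)) of the measured members of each gene list; filled points rose (orange) or fell (blue), open points were not called, and the black bar is the list's median. The formative list has its median at 1.77 and the lysosome list at -0.64, while G2 and mitosis genes centre on 0.01.

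Genes of the amino acid response controlled by ATF4 were lower: of 17 measured 3 fell and none rose (median change -0.80, -1.03 in pair 1 and -0.71 in pair 2). The count of ATF4 response genes that fell was 2 and 2 without WT 0 h replicate 1 and 2, 2 and 2 without WT 12 h replicate 1 and 2, and 2 to 5 without any 1 of the other 8 libraries. Trib3, a pseudokinase gene, went from 27.6 and 21.8 FPKM to 5.005 and 6.03 (change -1.97, SE 0.25, adjusted p = 0.0036), and the stress factor gene Nupr1 from 12.1 and 8.03 to 0.938 and 0.119 (change -2.88, SE 0.38, adjusted p = 0.004). Asns, asparagine synthetase, fell (374 and 318 FPKM, then 182 and 171; adjusted p = 0.029), and Atf4 itself was not called (206 and 156 FPKM, then 83.0 and 88.5; adjusted p = 0.059). Gcat, which completes the conversion of threonine to glycine, fell (57.3 and 49.8 FPKM, then 22.5 and 21.5; adjusted p = 0.0069), the only call of 13 in its list; Tdh, the enzyme before it, was not called (449 and 228 FPKM, then 222 and 123.6; adjusted p = 0.3). Of 23 measured glycolysis and hypoxia genes Aldoc, an aldolase gene, fell (15.1 and 6.49 FPKM, then 1.69 and 2.15; adjusted p = 0.011). The count of glycolysis and hypoxia genes that fell was 1 and 6 without WT 0 h replicate 1 and 2, 0 and 0 without WT 12 h replicate 1 and 2, and 1 to 2 without any 1 of the other 8 libraries. Ldha was at 738 FPKM in WT 0 h replicate 1 and at 167, 149.8 and 104 in the other 3 libraries, so that 1 library stood apart. Of 18 measured redox genes Sod2, the mitochondrial superoxide dismutase gene, fell (68.5 and 69.5 FPKM, then 32.2 and 36.2; adjusted p = 0.012). Ckb, brain creatine kinase, fell from 878 and 1156 FPKM to 381 and 493 (change -1.22, SE 0.23, adjusted p = 0.019). None of 20 cholesterol or 11 fatty acid synthesis genes was called. Asns was called in 2 fits alone, those without a delta 0 h library (adjusted p 0.054 to 0.16 in the others). Gcat and Aldoc were not called without either WT 12 h library (adjusted p 0.056 to 0.066 and 0.056 to 0.1, respectively). Sod2 was not called without either WT 12 h library or WT 0 h replicate 1 (adjusted p 0.052 to 0.12). Ckb was not called without either WT 12 h library, WT 0 h replicate 2 or either delta 24 h library (adjusted p 0.052 to 0.18).

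Of the division and survival lists described here, that of the Bcl2 family alone held calls. None of 18 measured G1 cyclin and inhibitor genes, 21 G2 and mitosis genes, 12 heat shock genes or 17 p53 targets was called. Over all genes tested 4.03% were called, and at that share lists of this size can hold no call. The count of p53 targets that rose was 0 and 1 without WT 0 h replicate 1 and 2, 0 and 0 without WT 12 h replicate 1 and 2, and 0 to 1 without any 1 of the other 8 libraries. Cdkn1a (p21), a cell cycle inhibitor, was at 66.0 and 114 FPKM and then 21.8 and 31.2 (change -1.70, SE 0.44, adjusted p = 0.071). In the Bcl2 family (12 measured) Bid, a pro-apoptotic member, fell from 30.0 and 30.3 FPKM to 12.9 and 13.7 (change -1.12, SE 0.15, adjusted p = 0.0046). Bcl2l11 (Bim), another pro-apoptotic member, rose from 0.651 and 0.679 to 2.11 and 2.76 (change 1.04, SE 0.21, adjusted p = 0.027). Bid was not called without WT 12 h replicate 1 (adjusted p 0.061). Bcl2l11 was not called without either WT 12 h library, either WT 0 h library, either WT 24 h library or either delta 24 h library (adjusted p 0.054 to 0.17).

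Markers of other cell types were few. Of 4 measured trophoblast genes Cdx2 and Tfap2c fell (12.4 and 18.5 FPKM, then 3.08 and 1.93; adjusted p = 0.0067). Of 5 measured primitive streak genes Sp5, T and Gsc fell (2.41 and 8.23 FPKM, then 0.181 and 0.790; adjusted p = 0.035), of which Sp5 and T are also in the WNT list. Of 5 measured primitive endoderm genes Lrp2, an endocytic receptor gene, rose (0.0591 and 0.225 FPKM, then 3.94 and 3.08; adjusted p = 0.009). The count of primitive endoderm genes that rose was 0 and 1 without WT 0 h replicate 1 and 2, 0 and 3 without WT 12 h replicate 1 and 2, and 1 without any 1 of the other 8 libraries. None of 3 measured neural markers was called, and all 9 markers of 2-cell-like cells stayed under 1 FPKM in the 4 libraries. Fibroblast markers followed the replicate number: summed over the list they reached 23.0 and 50.5 FPKM in the replicate 1 libraries (0 h, 12 h) and 2.35 and 6.06 in the replicate 2 libraries. None of the 7 measured was called, and their part in the other differences between replicates was not tested. Tfap2c was not called without WT 12 h replicate 2 (adjusted p 0.056). Gsc was not called without either WT 12 h library, WT 0 h replicate 2, either WT 24 h library, either delta 12 h library or either delta 24 h library (adjusted p 0.064 to 0.24). Lrp2 was not called without WT 12 h replicate 1 or WT 0 h replicate 1 (adjusted p 0.056 to 0.088).

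The largest rises included genes outside these lists. Prss50, a serine protease gene, went from 0.339 and 0.158 FPKM to 12.7 and 24.8 (change 3.92, SE 0.28, adjusted p = 0.00048). Zfp423, a zinc finger gene, went from 0.211 and 0.137 to 15.3 and 8.32 (change 3.39, SE 0.28, adjusted p = 0.00061), and Basp1, a membrane protein gene, from 10.5 and 21.3 to 134 and 165 (change 3.22, SE 0.31, adjusted p = 0.001). At 24 h these 3 had means of 24.6, 8.02 and 162 FPKM. Myrf, a transcription factor gene (0.519 and 0.0807 FPKM, then 17.2 and 6.36; adjusted p = 0.0026), and Exoc3l (2.49 and 2.31 FPKM, then 50.2 and 24.5; adjusted p = 0.0012) rose too. The phospholipase gene Pla2g7 was at 0.442 and 0.0793 FPKM and then 12.1 and 6.41 (change 2.98, SE 0.34, adjusted p = 0.0023), with a mean of 2.66 at 24 h. Eras, a Ras gene of embryonic stem cells, rose from 6.32 and 1.497 FPKM to 35.8 and 32.4 (change 3.03, SE 0.53, adjusted p = 0.015). Halr1, a long noncoding RNA gene (chr6:52102949-52113684, GRCm38), rose from 0 and 0.391 FPKM to 10.7 and 7.15 (change 3.05, SE 0.26, adjusted p = 0.00067). Eras was not called without either WT 12 h library or WT 0 h replicate 2 (adjusted p 0.053 to 0.11).

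Several genes with large changes overlap another called gene on the opposite strand. The sources used here do not say if counting used the strand, so the reads of such partners cannot be told apart. Nkx1-2, a homeobox gene, fell from 23.9 and 26.5 FPKM to 1.16 and 0.153 (change -4.05, SE 0.29, adjusted p = 0.00048), and its antisense gene Gm16764 on chromosome 7 from 46.0 and 42.4 to 2.20 and 0.500 (change -4.37, SE 0.33, adjusted p = 0.00048). Ly6g6e (36.6 and 44.5 FPKM, then 1.53 and 2.83; adjusted p = 0.00061) and Ly6g6d (19.3 and 18.8 FPKM, then 0.932 and 1.37; adjusted p = 0.00048) on chromosome 17 fell together. So did the cation channel gene Trpm1 (21.5 and 11.01 FPKM, then 0.546 and 0.734; adjusted p = 0.0006) with RP23-84M17.4 (69.5 and 32.8 FPKM, then 1.71 and 2.99; adjusted p = 0.0013), and Grin1os (9.87 and 13.6 FPKM, then 0.398 and 0.554; adjusted p = 0.00036) with Grin1 (5.05 and 8.94 FPKM, then 0.314 and 0.279; adjusted p = 0.00088). Among rises, Gm17080 (85.5 and 77.0 FPKM, then 203 and 182; adjusted p = 0.0059) lies opposite the nucleoside transporter gene Slc29a1 (43.7 and 42.1 FPKM, then 118 and 110.5; adjusted p = 0.0023), and Gm28592 (2.66 and 6.63 FPKM, then 35.3 and 28.8; adjusted p = 0.0042) opposite Phlda1. Nkx6-2, a homeobox gene, fell from 36.4 and 90.8 FPKM to 2.29 and 7.51 (change -3.47, SE 0.58, adjusted p = 0.011), and the myelin protein gene Mal from 14.2 and 8.10 to 0.269 and 0.108 (change -3.31, SE 0.24, adjusted p = 0.00048). Gm17080 and Gm28592 were not called without WT 12 h replicate 1 (adjusted p 0.074 and 0.053, respectively). Nkx6-2 was not called without WT 12 h replicate 1 or WT 0 h replicate 2 (adjusted p 0.057 to 0.1).

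Some lists and genes without calls differed widely between the pairs. A call needs a small spread between libraries, so genes whose pairs differ widely are less likely to be called. Ribosomal protein genes changed by a median of -1.08 in pair 1 and -0.19 in pair 2, and nuclear genes of oxidative phosphorylation by -1.0 and -0.17; none of 83 and 21 measured was called. Both 12 h libraries lay below both 0 h libraries in 78 of the ribosomal protein genes and 16 of the oxidative phosphorylation genes. Over all genes tested the share was 25.8%. The ribosomal protein list was added after its values were seen. The 2 list medians were -0.64 and -0.57 in WT and -0.85 and -0.75 in delta. Without WT 0 h replicate 1 the WT medians were -0.25 and -0.19, and without WT 0 h replicate 2 -1.01 and -0.91. Same-numbered WT and delta libraries of 0 h deviated together (correlation 0.70), so the delta medians may not be independent of those in WT. Mitochondrially encoded genes went opposite ways, by 0.69 and -0.71 (7 measured, none called). Mir6236, which resembles ribosomal RNA, was at 3592 FPKM in WT 12 h replicate 2 and at 230.3, 247 and 182 in the other 3 libraries. The mitochondrial tRNA gene mt-Te was at 225 FPKM in WT 0 h replicate 2 and at 17.2, 19.2 and 20.3 in the others. Hspg2 (perlecan) was at 5.54 FPKM in WT 0 h replicate 1 and at 29.4, 31.2 and 33.8 in the others. In each of these 3 genes 1 library stood apart.

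**Figure D5:**
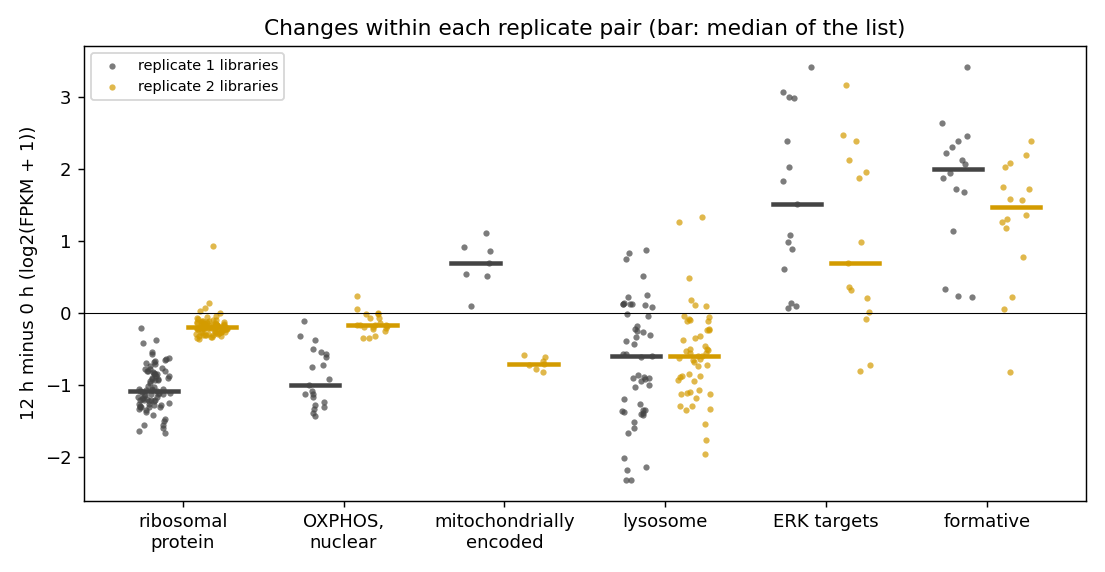
Change from 0 h to 12 h (log2(FPKM + 1)) of each measured member of several lists in the replicate 1 libraries (grey) and the replicate 2 libraries (yellow), with the list median as a bar. Ribosomal protein genes have medians of -1.08 and -0.19, and mitochondrially encoded genes of 0.69 and -0.71.

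The step from 12 h to 24 h shares the 12 h libraries with the first, so its levels and its own test are given side by side with it. limma called 35 genes higher at 24 h than at 12 h (0.250%) and 22 lower (0.157%). Whether these calls hold when 1 library is left out is not reported here. Pou3f1 had means of 4.77 FPKM at 12 h and 55.0 at 24 h (change 3.38, adjusted p = 0.011), and Sox3 of 2.31 and 10.1 (change 1.76, adjusted p = 0.041). Mitf had means of 3.42 and 0.920 FPKM (change -1.21, adjusted p = 0.045), and Id4 of 5.93 and 1.80 (change -1.31, adjusted p = 0.046). Slc29a1, chosen after its values were seen, had means of 114 and 58.0 FPKM (change -0.97, adjusted p = 0.049) and so was lower again at 24 h. Bmp4, a BMP ligand gene not called at 12 h (14.4 and 15.7 FPKM, then 29.3 and 29.9; adjusted p = 0.11), was at 6.56 and 6.62 FPKM at 24 h (change -2.01, adjusted p = 0.029). Fgf5 had a mean of 9.78 FPKM at 24 h (change 3.09, adjusted p = 0.003). Dusp6, Myc and Utf1 had means of 43.7, 31.6 and 612 FPKM at 24 h, near their 12 h means of 43.3, 29.1 and 554.

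The first 12 h were set against the same step in delta by testing the difference of the changes. limma called 0 of 13981 genes (0%), with 86 at an unadjusted p under 0.05 (0.615%), and limma with voom weights on recovered reads also called 0. A well calibrated test would give a fraction near 0.05 even if no gene differed, so this test was too cautious here. Same-numbered WT and delta libraries of 0 h deviated together (correlation 0.70), which the model without a block leaves in the spread. With the replicate number as a block limma also called 0 genes for this difference. The part of the shared deviation in the low share was not tested. For Tcf15 the difference, delta minus WT, was -2.94 (SE 0.67, adjusted p = 1): it changed by 2.52 and 2.75 in the WT pairs and by -0.62 and -0.01 in the delta pairs. List medians in WT and delta were 1.77 and 2.00 for the formative list, 0.93 and 1.06 for ERK targets, and -0.64 and -0.74 for the lysosome list. They were -0.56 and -0.47 for WNT targets and -0.94 and -0.81 for LIF/STAT3 targets. With 2 libraries a group and a test this cautious, the lack of calls does not show that the lines responded alike.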

How the data were processed

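Messenger RNA of 12 libraries was measured by sequencing. The FPKM values are those the authors deposited, in a table of 47729 genes; the submitters' processing notes name cutadapt, STAR 2.5.2b, featureCounts 1.5.1, edgeR 3.16.5 and mm10, without roles or order. No source used here gives the strandedness of counting. Whole reads were recovered from the steps of the FPKM values (tolerance 0.01 reads; whole in 100% of the 28657 genes above 0) for depth, read shares and an alternative test. Genes with at least 1 FPKM in at least 2 libraries entered, as log2(FPKM + 1), a limma 3.58.1 model (R 4.3.3) of 6 group means over 12 libraries with a variance trend and no block. SE is the model's, and p-values were 2-sided and adjusted over all 13981 genes by the Benjamini-Hochberg method. The script was tested on simulated data in which libraries varied independently. That run does not show the error rate where same-numbered libraries deviate together. Tables and figures used Python 3.11.15, pandas 2.3.3, numpy 2.4.6 and matplotlib 3.10.9.

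Groups come from the sample titles. The comparison, the 45 gene lists and the members described were chosen with earlier results of these data known; 4 further lists (lysosomal, proton pump, autophagy and ribosomal protein genes) were added after their values were seen. Named genes were taken from these sets: the 12 largest rises and 12 largest falls among called genes without overlap and with at least 5 FPKM in the higher group; in each list up to 6 genes by adjusted p and 3 by level; 13 genes of pluripotency and DNA methylation; the 5 largest differences between pairs each way at 20 FPKM or more; the 5 most abundant calls and the 3 largest noncoding calls each way. Aire, Cldn3, Ezh2, Grin1, Lefty1, Prdm14, Slc29a1, Sox3, Tbx3, Tfe3 and genes of the added lists were chosen after their values were seen. Some genes that enter the counts of a list are not reported here by name. Overlapping genes were read from GENCODE M21 (GRCm38). Alternatives covered the replicate block, pseudocount, low-value filter, scaling, variance trend, a fit on recovered reads and the libraries included.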

Additional observations from a re-analysis of the deposited data

Results flagged for a closer look

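Tcf15 was higher at 12 h than at 0 h in both WT pairs and not in either delta pair, of which 1 hardly changed. It changed by 2.52 and 2.75 in the WT pairs and by -0.62 and -0.01 in the delta pairs, in which a regulatory region of Tcf15 is deleted. The difference, delta minus WT, was -2.94 (SE 0.67), and limma's test of the difference over all 13981 genes gave an adjusted p of 1. That test was too cautious, with an unadjusted p under 0.05 in 0.615% of genes, so its outcome does not show that Tcf15 changed alike.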

How the results depend on the processing

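All 563 called genes kept the sign of their change under every alternative in which they were tested. For fits that left out libraries or added the block, that was fixed in advance. Their 0 h and 12 h libraries did not overlap, and the other groups do not enter the WT change. Calls were kept less often. Of the 563, 253 were kept with only the 6 WT libraries and 0 with only the 4 of 0 h and 12 h. Without the filter 387 were kept, and with the fit on recovered reads 516. The replicate number was tried as a block: 513 genes were then higher and 476 lower, and all 563 calls were kept. Over the 15 pairs of groups, same-numbered libraries deviated together with a correlation over 0.1 in 14, with -0.07 between WT 12 h and delta 0 h, and the labels do not say what a number marks. This is a hint of pairing from the data, not from the design, so the block was kept as an alternative. With it 3 of 17 p53 targets were higher and 1 lower, 1 of 18 G1 genes higher and 1 lower, 3 of 12 Bcl2 family genes higher and 1 lower, and Cdkn1a was called (change -1.70, limma adjusted p = 0.0038). With only the 4 WT libraries of 0 h and 12 h, limma called 0 genes in either direction. There 899 positive and 870 negative changes had an unadjusted p under 0.05. With the replicate block on these 4 libraries it called 544 and 454. That fit left each gene 1 degree of freedom of its own beside a prior of 20.3 shared over genes. Its p-values therefore rest mostly on the shared spread. Only the 6 WT libraries gave 144 higher and 123 lower, and leaving out both 0 h libraries of replicate 1 gave 473 and 696. Leaving out 1 library at a time gave 77 to 513 higher and 53 to 571 lower. Other settings of pseudocount, filter, scaling, variance trend and recovered reads gave 210 to 342 higher and 205 to 311 lower. The test of delta against WT called 5 genes without the filter and 0 to 1 when 1 library was left out. With 2 libraries a group and a replicate SD over genes of 0.66 at 0 h and 0.42 at 12 h (log2), small changes were not detectable. The causes of these differences between settings were not tested.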
